A study of Arabidopsis thaliana and Arabidopsis thaliana x Arabidopsis arenosa and Arabidopsis arenosa with 18 samples.

Results

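The genes described here are 8 loci of Arabidopsis that make and control the immune signals N-hydroxypipecolic acid and salicylic acid: ALD1 (AT2G13810), SARD4 (AT5G52810), FMO1 (AT1G19250), ICS1 (AT1G74710), EDS5 (AT4G39030), PBS3 (AT5G13320), SARD1 (AT1G73805) and CBP60g (AT5G26920). They are 8 of the 33602 loci in the deposited count table. They were picked because ALD1 was far higher in material with a Col-0 mother, so the difference between Col-0 and C24 mothers is described below and not tested.

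Messenger RNA was sequenced 3 days after hand pollination, in 7 groups of 2 libraries. Whole siliques, the fruits that enclose the seeds, and whole seeds came from the hybrid of A. thaliana Col-0 (Col below) with A. arenosa, described by the study as incompatible, and from the hybrid of A. thaliana C24 with A. arenosa, described as compatible. Control seeds came from A. arenosa crossed with itself (2x-Aa in the library titles), from Col crossed with Col-0 and from C24 crossed with C24. Col and C24 are natural diploid accessions. Every A. thaliana mother in the hybrid and control crosses was hemizygous for the same male-sterility construct (A9), so none was an unmodified plant, and the hybrids had a diploid A. arenosa of the variety Strecno as father. Per the labels, a single A. arenosa plant served as pollen donor, and the labels do not say that the replicates came from separate plants or pools. The p-values below therefore measure the spread between these libraries, which may be technical.

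Plants build N-hydroxypipecolic acid from lysine: ALD1, an aminotransferase, removes the amino group, SARD4, a reductase, turns the product into pipecolic acid, and FMO1, a flavin monooxygenase, hydroxylates it. Most pathogen-induced salicylic acid is made from chorismate in the plastid, where ICS1 forms isochorismate, which EDS5 exports and PBS3 joins to glutamate in the cytosol before it breaks down to salicylate. SARD1 and CBP60g are related transcription factors that switch on these genes in infected leaves. Together the pathways are known from leaves for systemic acquired resistance, the heightened defence of uninfected tissue after a local infection.

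Libraries held 8931520 to 16149496 gene reads, except for the A. arenosa control, with 1777781 and 2089616. Levels are given as CPM, counts scaled to a common library size by the trimmed mean of M-values (TMM), and 1 read was worth 0.0605 to 0.125 CPM outside the A. arenosa control and up to 0.470 CPM in it. Col control 1 stood apart, with 31430 loci holding a read against 19596 to 28243 in the other 13 libraries, and with transposable elements taking 1.22% of gene and transposable element reads against 0.0440% to 0.258% in the 7 other libraries counted for them. In the A. arenosa control, summed seed coat markers (BAN, TT4, TT12 and STK, 4 of 4 detected) reached 688 to 822 CPM against 2526 to 18191 CPM elsewhere, and 3 pollen markers summed to 1238 and 9327 CPM against 1.82 to 147 CPM elsewhere. Of 5 endosperm markers, PHE1 and ZOU had 0 reads in both A. arenosa libraries, and AGL62 (0 and 0.462 CPM) and FIS2 (0.470 and 0 CPM) were near 0, while MEA stood at 20.2 and 10.2 CPM, against 5.99 to 9.69 CPM in the A. thaliana controls. Of 3 embryo markers, WOX2 had 0 reads and LEC1 0 and 0.462 CPM, while PDF1 reached 526 and 302 CPM, against 12.3 to 50.0 CPM in the A. thaliana controls. In the A. arenosa control the 3 green tissue markers summed to 4038 and 11669 CPM, against 455 to 894 CPM in the A. thaliana controls. Of 4 fruit markers, FUL stood at 60.7 and 182 CPM, against 0.292 to 2.27 CPM in the A. thaliana controls. ALC was lower, at 26.3 and 29.1 CPM against 65.0 to 78.5 CPM, and IND and SHP1 overlapped those controls. A. arenosa reads were also counted on the A. thaliana genome. The part that this or the marker levels had in the A. arenosa values was not tested.

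The 8 genes fell into very different ranges. SARD4 collected 20351 reads over the 14 libraries, ALD1 2248, EDS5 2027, ICS1 1859 and PBS3 1520. CBP60g collected 78 reads, SARD1 37 and FMO1 8. FMO1 and SARD1 were thus near the limit of detection, where 3 reads in a library stand for 0.182 to 1.41 CPM. Col control 1 alone held 5 of the 8 FMO1 reads and 28 of the 37 SARD1 reads. All 8 genes were unique in sequence, with at most 2.69% of their 31-base exon words found elsewhere in the genome. SARD4 overlaps its neighbour AT5G52800 by 89 bases on the same strand. EDS5 overlaps AT4G39040 by 213 bases and SARD1 overlaps AT1G73790 by 640 bases on the opposite strand, which counts without strand cannot separate. AT5G52800 stood at 0.303 to 1.88 CPM over the 14 libraries, AT4G39040 at 20.4 to 62.2 CPM and AT1G73790 at 3.24 to 14.9 CPM. The part of these neighbours in the counts was not tested.

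ALD1, which commits lysine to pipecolate, was seen mainly in seeds with a Col mother. Its level was 21.7 and 31.0 CPM in Col hybrid seeds, against 0.499 and 0.0962 CPM in C24 hybrid seeds. In control seeds it was 39.5 and 64.7 CPM in Col, against 1.24 and 0.292 CPM in C24. In hybrid siliques ALD1 had 16 and 35 reads (1.10 and 2.12 CPM) with a Col mother, against 0 reads in both libraries with a C24 mother. The A. arenosa control held 4 and 0 reads. Each Col library was thus above each C24 library of the same material. The ratio of the group means, Col over C24, was 88.6 in hybrid seeds and 68.0 in control seeds, and in siliques at least 7.45, with the C24 libraries set to the floor of 3 reads each. From the summed reads the ratios were 79.7 in hybrid seeds and 65.9 in control seeds, with 95% counting intervals of 38.5 to 199 and 43.3 to 105, which cover counting error only. In bulk material, fewer cells of a type and less RNA per cell cannot be told apart.

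SARD4, the next enzyme, followed the same split between mothers at a higher level. It stood at 223 and 281 CPM in Col hybrid seeds, against 9.07 and 13.0 CPM in C24 hybrid seeds. In control seeds it stood at 335 and 368 CPM in Col, against 49.8 and 50.2 CPM in C24. In siliques it stood at 43.8 and 71.2 CPM with a Col mother, against 13.2 and 8.25 CPM with a C24 mother. No library with a Col mother overlapped the C24 libraries of the same material. The ratio of means, Col over C24, was 22.9 in hybrid seeds, 7.04 in control seeds and 5.35 in siliques.

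Among the 22635 genes that passed the low-count filter over all 7 groups, which included 7 of the 8 genes and not FMO1, 2.69% were more than 8-fold higher with a Col mother in hybrid seeds, 4.51% in control seeds and 2.56% in siliques. Past that line stood ALD1 and SARD4 in hybrid seeds. In control seeds past it were ALD1 and, on few reads, SARD1 (28 reads in Col, all in Col control 1, against 2 in C24) and CBP60g (10 reads against 1). In siliques ALD1 (51 reads against 0) and SARD1 (2 reads against 0) were past it because the C24 mean was 0. With C24 at the floor of 3 reads, ALD1 was there at least 7.45-fold higher, and SARD1 lay under the floor. Since the genes were picked on this contrast, nothing is read from these counts. Where both groups held reads, CBP60g was nearest to the line on its inner side, at 8.92-fold in control seeds. SARD4 was nearest outside it, at 7.04-fold in the same seeds.

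The salicylate genes ICS1, EDS5 and PBS3 were not higher with a Col mother throughout. ICS1 stood at 13.6 and 16.6 CPM in Col hybrid seeds, against 19.0 and 15.5 CPM in C24 hybrid seeds, ranges that overlapped. Its ratio of means, Col over C24, was 0.878 in hybrid seeds, 1.15 in control seeds and 0.632 in siliques. In siliques both ICS1 values with a Col mother lay below both with a C24 mother. For EDS5 the 3 ratios were 1.06, 1.48 and 1.07. Its Col libraries lay above the C24 libraries in control seeds (12.4 and 13.8 against 8.34 and 9.42 CPM) and overlapped them in hybrid seeds and siliques. For PBS3 the Col libraries lay below the C24 libraries in hybrid seeds and siliques and overlapped them in control seeds. PBS3, on 15 to 45 reads per pair of seed libraries, had ratios of 0.408 in hybrid seeds and 2.66 in control seeds, and 0.530 in siliques, where it had 224 and 216 reads with a Col mother against 352 and 392 with a C24 mother.

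**Figure D1:**
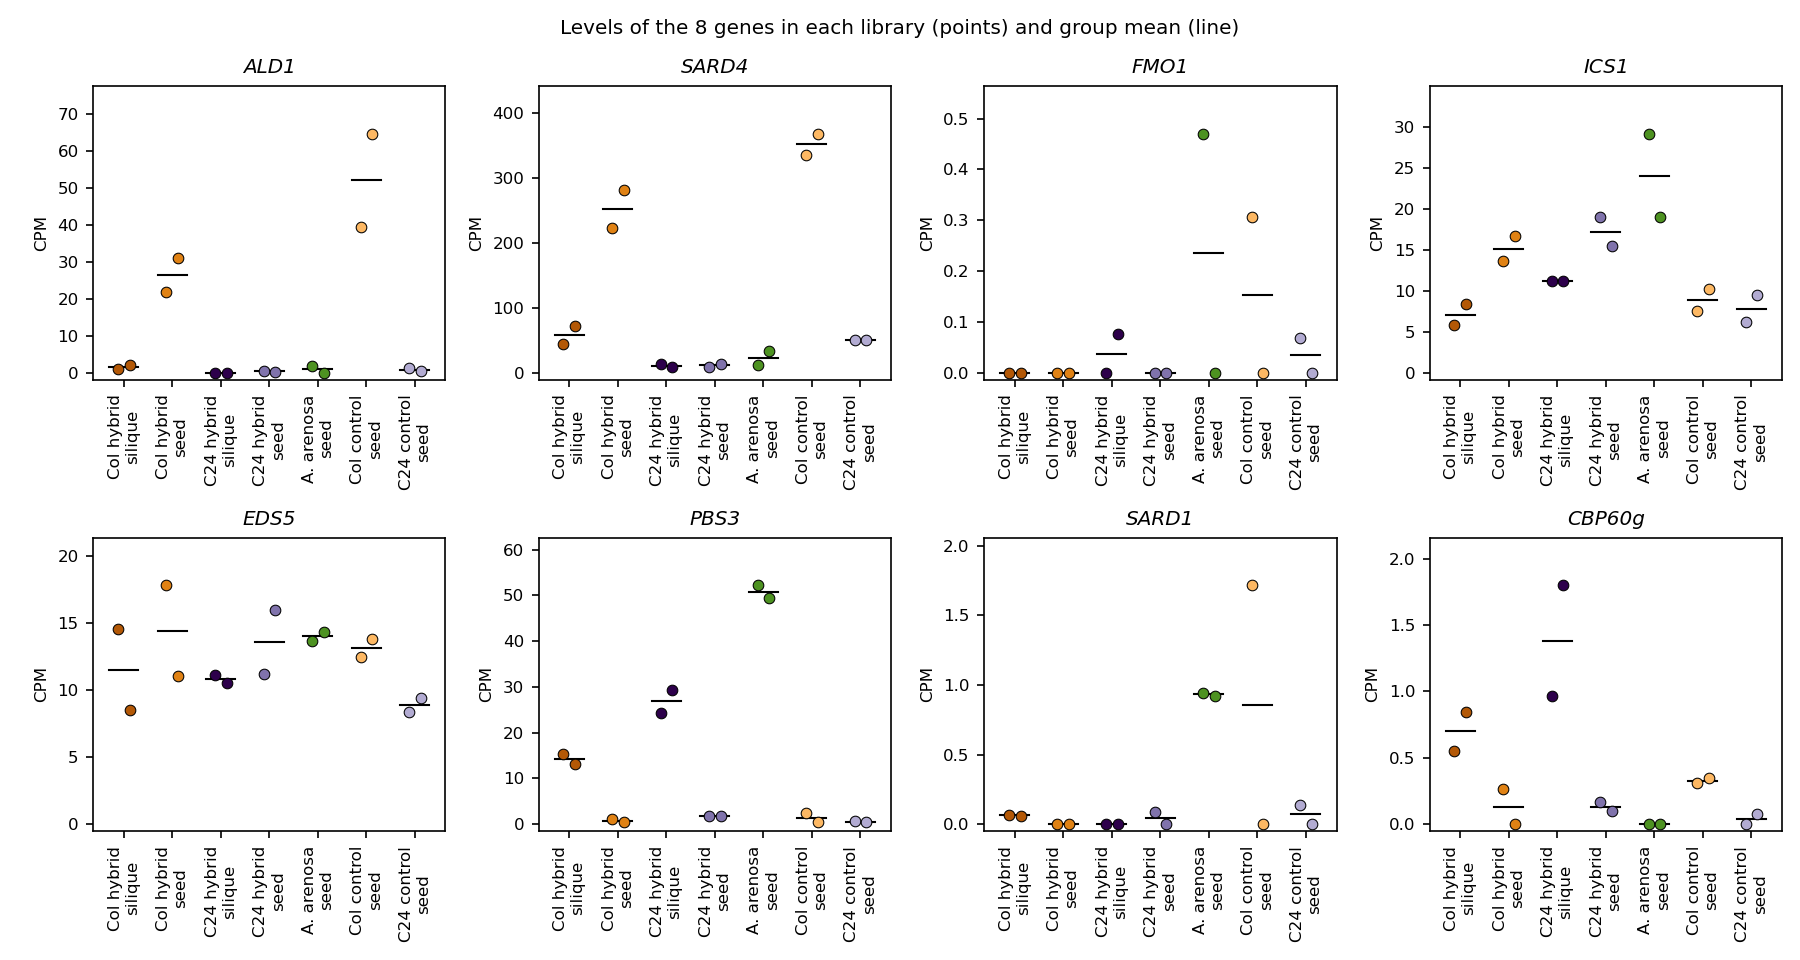
Level of each of the 8 genes in CPM (vertical axis, linear, from 0, with its own range in each panel) in the 14 libraries, 2 points per group with a line at the mean. ALD1 and SARD4 are highest in Col control and Col hybrid seeds, PBS3 in A. arenosa control seeds and in siliques, EDS5 lies between 8.34 and 17.8 CPM, and the points of FMO1, SARD1 and CBP60g rest on 0 to 28 reads.

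Ordered by mean level, ALD1 ran from Col control seeds (52.1 ± 17.8 CPM, SD, n = 2) and Col hybrid seeds (26.4 ± 6.60 CPM) to Col siliques (1.61 ± 0.722 CPM), A. arenosa control seeds (0.941 ± 1.33 CPM), C24 control seeds (0.766 ± 0.670 CPM), C24 hybrid seeds (0.298 ± 0.285 CPM) and C24 siliques (0 CPM). Col control seeds, Col hybrid seeds and Col siliques stood apart in turn, while from Col siliques down to C24 hybrid seeds each group overlapped the next. SARD4 ran from Col control seeds (352 ± 23.3 CPM) and Col hybrid seeds (252 ± 41.5 CPM) to Col siliques (57.5 ± 19.4 CPM), C24 control seeds (50.0 ± 0.238 CPM), A. arenosa control seeds (22.8 ± 14.9 CPM), C24 hybrid seeds (11.0 ± 2.77 CPM) and C24 siliques (10.7 ± 3.53 CPM). Col siliques overlapped C24 control seeds, and the last 3 groups overlapped one another in turn.

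Per kilobase of exon, the scale on which genes can be compared, SARD4 was the most abundant of the 8 transcripts in Col seeds. Its level there was 186 ± 30.6 CPM per kilobase in Col hybrid seeds and 259.5 ± 17.2 in Col control seeds, against 16.8 ± 4.20 and 33.15 ± 11.3 for ALD1. In C24 hybrid seeds the levels were 8.13 ± 2.04 CPM per kilobase for SARD4, 7.90 ± 1.13 for ICS1 and 0.189 ± 0.181 for ALD1. In C24 control seeds SARD4 was again the highest of the 8, at 36.9 ± 0.175 CPM per kilobase. In the A. arenosa control PBS3 was the highest at 19.4 ± 0.744 CPM per kilobase, next to SARD4 at 16.8 ± 11.0 with a wide spread.

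Hybrid seeds were next compared with control seeds of the same mother, which asks how a foreign father changes seed transcripts and was not used to pick the genes. Of the 8 genes, 5 passed the low-count filter of this fit (ALD1, SARD4, ICS1, EDS5 and PBS3), and FMO1, SARD1 and CBP60g did not. ALD1 passed it through the Col libraries in which it is high. Among all 20552 genes tested, 16.8% were called in the Col cross and 31.8% in the C24 cross with edgeR's quasi-likelihood test at an adjusted p under 0.05. Markers of cell types moved between the same libraries. The 3 green tissue markers were called higher in both crosses, with sums of 1783 to 1865 CPM in Col hybrid seeds against 691 to 894 CPM in Col control seeds, and of 1477 to 1949 CPM in C24 hybrid seeds against 455 to 578 CPM in C24 control seeds. Of 4 seed coat markers 2 were lower in each cross, and of 5 endosperm markers 2 were higher and 2 lower in Col, and 3 higher and 2 lower in C24. Of the 2 embryo markers tested 1 was higher in Col, and 1 was higher and 1 lower in C24. Hybrid seeds also hold transcripts from the A. arenosa father, whose reads were counted on the A. thaliana genome, and control seeds do not. The part of the markers and of this counting in the results below was not tested.

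In the Col cross, ALD1 and SARD4 were lower in both hybrid libraries than in both controls, but no call was made. The 21.7 and 31.0 CPM of ALD1 in Col hybrid seeds, against 39.5 and 64.7 CPM in Col control seeds, gave a log2 fold change of -0.95 ± 0.35 (SE; edgeR adjusted p = 0.0958). For SARD4 the log2 fold change was -0.45 ± 0.17 (adjusted p = 0.107). ICS1, the first enzyme of salicylate synthesis, had 13.6 and 16.6 CPM in Col hybrid seeds, against 7.54 and 10.3 CPM in Col control seeds. The groups did not overlap, and the log2 fold change was 0.79 ± 0.23 (edgeR adjusted p = 0.0508). DESeq2 called 1 of the 5 genes, SARD4, beside 3074 of all 20552 genes. Under an unadjusted p of 0.05 in edgeR were 3 (ALD1, SARD4 and ICS1), and the share of all genes at that level is not given here. EdgeR's test thus called 0 of the 5 genes after adjustment. The count depended on single libraries: without Col control 1, ALD1 was called (log2 fold change -1.30, edgeR adjusted p = 0.0490), and without Col control 2, ICS1 was called (1.11, adjusted p = 0.0361). EDS5 (0.18 ± 0.24) and PBS3 (-0.96 ± 0.94) were not called.

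SARD4 fell and ICS1 rose in the C24 cross, 2 of the 5 genes tested. SARD4 had 9.07 and 13.0 CPM in C24 hybrid seeds, against 49.8 and 50.2 CPM in C24 control seeds. The hybrid libraries were both well below the controls, and the log2 fold change was -2.14 ± 0.19 (edgeR adjusted p = 0.000307), a call kept in 13 of 13 alternative settings. ICS1 had 19.0 and 15.5 CPM in C24 hybrid seeds, against 6.13 and 9.42 CPM in C24 control seeds. Its log2 fold change was 1.21 ± 0.23 (edgeR adjusted p = 0.00585), and the call was lost without C24 control 1 (0.87, adjusted p = 0.0815). ALD1, with 6 and 1 reads in C24 hybrid seeds against 18 and 4 in C24 control seeds, was not called (-1.25 ± 0.93, adjusted p = 0.348). PBS3 (1.74 ± 0.96; called at 1.70, adjusted p = 0.0364, in a fit of the compared groups alone) and EDS5 (0.66 ± 0.25, adjusted p = 0.0762) were not called, although EDS5 was higher in both C24 hybrid libraries, at 11.2 and 16.0 CPM, than in the C24 controls, at 8.34 and 9.42 CPM.

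The hybrid effect of SARD4 differed between the crosses. The effect in Col minus that in C24 was 1.68 ± 0.26 on the log2 scale (edgeR adjusted p = 0.0207), 1 call among the 5 genes where 1.39% of all genes were called. The call was lost without Col hybrid 2 (1.59, adjusted p = 0.0669) and without C24 hybrid 1 (1.50, adjusted p = 0.0944), and all 16 alternatives gave between 1.50 and 2.02. For ALD1 the difference was 0.30 ± 0.97 (adjusted p = 0.908), which shows neither a difference nor its absence. ICS1 (-0.42 ± 0.33), EDS5 (-0.47 ± 0.35) and PBS3 (-2.70 ± 1.34) were not called.

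**Figure D2:**
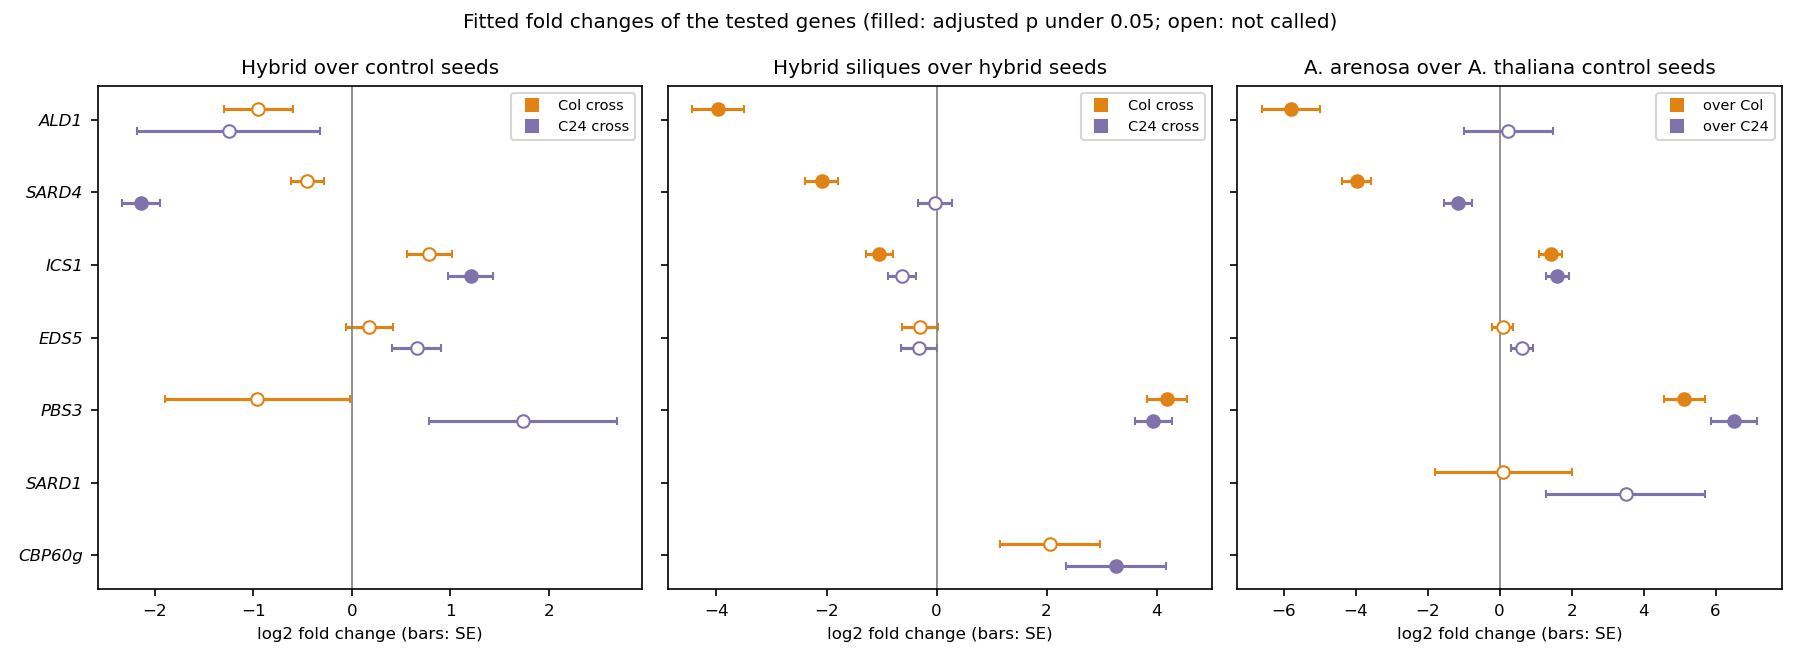
Fitted log2 fold change (horizontal axis, bars are SE) of the genes that passed each fit, for hybrid over control seeds, hybrid siliques over hybrid seeds and A. arenosa over A. thaliana control seeds, with 2 libraries per group. SARD4 falls in the C24 cross on the left and in the Col cross in the middle, PBS3 lies at 4.19 and 3.94 in siliques, and ALD1 in C24 siliques is left out because both libraries held 0 reads.

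Whole siliques were then set against seeds of the same hybrid. The siliques contain the seeds and the fruit wall, and these comparisons share the hybrid seed libraries with those above. The 4 silique libraries had 11670 to 18828 CPM of summed green tissue markers (3 of 3 detected), against 1477 to 1949 CPM in hybrid seeds, and the fruit gene FUL stood at 64.5 to 90.2 CPM against 0.481 to 1.04 CPM. The 4 seed coat markers summed to 2526 to 3673 CPM in siliques, against 12114 to 15356 CPM in hybrid seeds. The part of this change of tissue in the results below was not tested. In this fit 6 of the 8 genes were tested (FMO1 and SARD1 were not), and 53.2% of all 20700 genes were called in the Col cross and 58.8% in the C24 cross.

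ALD1, SARD4 and ICS1 fell and PBS3 rose in Col siliques, 4 of the 6 genes. Of these, ALD1 was picked for its high level with a Col mother and passed the filter only through the Col libraries. ALD1 had 1.10 and 2.12 CPM in Col siliques, against 21.7 and 31.0 CPM in Col hybrid seeds, a log2 fold change of -3.97 ± 0.47 (edgeR adjusted p = 0.000246). SARD4 had 43.8 and 71.2 CPM in Col siliques, against 223 and 281 CPM in Col hybrid seeds, a log2 fold change of -2.09 ± 0.30 (adjusted p = 0.000422). Neither gene overlapped between siliques and seeds. ICS1 fell to 5.76 and 8.41 CPM in Col siliques, against 13.6 and 16.6 CPM in Col hybrid seeds (log2 fold change -1.04 ± 0.25, edgeR adjusted p = 0.00737). PBS3, the enzyme that conjugates isochorismate, had 15.4 and 13.1 CPM in Col siliques, against 1.04 and 0.375 CPM in Col hybrid seeds (4.19 ± 0.37, adjusted p = 3.19e-05). These 4 calls held in 12 of 12 alternative settings each. EDS5 (-0.30 ± 0.33) and CBP60g (2.07 ± 0.91, adjusted p = 0.0812) were not called.

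PBS3 rose in C24 siliques. CBP60g, higher, and ALD1, lower, were also under the threshold, which makes 3 of the 6 genes. CBP60g passed the filter only through the silique libraries and ALD1 only through the Col libraries, so nothing is read from these calls. PBS3 had 24.3 and 29.4 CPM in C24 siliques, against 1.75 and 1.73 CPM in C24 hybrid seeds (log2 fold change 3.94 ± 0.34, edgeR adjusted p = 2.16e-05). CBP60g, the calmodulin-binding regulator, had 14 and 24 reads in C24 siliques, against 2 and 1 reads in C24 hybrid seeds. Its log2 fold change was 3.27 ± 0.91 (edgeR adjusted p = 0.0120), and the call was lost without C24 silique 2 (2.76, adjusted p = 0.0875), C24 hybrid 1 (3.75, adjusted p = 0.0588) or C24 hybrid 2 (2.94, adjusted p = 0.0799). ALD1 had 0 reads in both C24 siliques, against 6 and 1 in C24 hybrid seeds. With the siliques at the floor of 3 reads per library it was at least 1.38-fold lower (edgeR adjusted p = 0.0272), and the call was lost without C24 silique 1 (adjusted p = 0.0797), C24 silique 2 (adjusted p = 0.0701) or C24 hybrid 1 (adjusted p = 0.191).

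SARD4 gave 13.2 and 8.25 CPM in C24 siliques, against 9.07 and 13.0 CPM in C24 hybrid seeds, ranges that overlapped (-0.03 ± 0.31, edgeR adjusted p = 0.946). Whether this silique effect differed from that in Col was tested after the data had been seen. The effect in Col minus that in C24 was -2.06 ± 0.43 for SARD4 (edgeR adjusted p = 0.104), and edgeR called 0 of the 6 genes where 0.290% of all genes were called. At an unadjusted p under 0.05 there was 1 gene, SARD4, which DESeq2 also called, beside 301 of all 20700 genes. ICS1 in C24 siliques was at 11.2 CPM in both libraries, against 19.0 and 15.5 CPM in C24 hybrid seeds, and was not called (-0.63 ± 0.25, edgeR adjusted p = 0.0527).

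The A. arenosa control seeds differed from both A. thaliana controls in PBS3 and ICS1. Tissue markers differed between the same libraries, with green tissue markers and FUL higher in A. arenosa as given above. The part of this in the values below was not tested. In this fit 6 of the 8 genes were tested (FMO1 and CBP60g were not). Against Col control seeds 4 of the 6 were called, where 49.0% of 21619 genes were called, and against C24 control seeds 3 of the 6, where 53.5% were called. PBS3 had 52.2 and 49.5 CPM in A. arenosa control seeds, against 2.33 and 0.482 CPM in Col control seeds and 0.620 and 0.438 CPM in C24 control seeds. Both A. arenosa libraries lay far above, with log2 fold changes of 5.13 ± 0.57 over Col (edgeR adjusted p = 9.52e-05) and 6.52 ± 0.64 over C24 (adjusted p = 3.80e-05). ICS1 had 29.2 and 19.0 CPM, against 7.54 and 10.3 CPM in Col control seeds, and was higher by 1.42 ± 0.32 than Col (edgeR adjusted p = 0.00469) and by 1.60 ± 0.32 than C24 (adjusted p = 0.00222). These 4 calls held in 13 of 13 alternative settings each.

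The pipecolate enzymes went the other way against Col. ALD1 had 4 and 0 reads in A. arenosa control seeds, against 644 and 939 in Col control seeds. It is 1 of the 4 genes called, but it was picked for its high level in Col and passed the filter through the Col libraries, so this is a description. From the summed reads, scaled for depth, A. arenosa had 0.0182 times the Col level, with a 95% counting interval of 0.00494 to 0.0466. Against C24 control seeds, with 18 and 4 reads, it was not called (0.24 ± 1.24). SARD4 had 12.2 and 33.3 CPM in A. arenosa control seeds and was lower than in Col control seeds by -3.97 ± 0.40 (edgeR adjusted p = 5.59e-05). Its value of -1.16 ± 0.38 against C24 (adjusted p = 0.0253) lost the call without A. arenosa control 1 (-0.64, adjusted p = 0.156), C24 control 1 (-1.10, adjusted p = 0.0897) or C24 control 2 (-1.23, adjusted p = 0.0640). EDS5 was not called over Col (0.08 ± 0.30) or over C24 (0.63 ± 0.31, adjusted p = 0.110), nor was SARD1 (0.10 ± 1.90 and 3.51 ± 2.21).

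Other genes of the pathways were read from 7 lists of 65 genes. They cover lysine and pipecolate side routes, salicylate side routes, modification of N-hydroxypipecolate and salicylate, relatives of CBP60g, salicylate perception, the immune node upstream, and WRKY factors and defence outputs. In hybrid against control seeds 52 of the 65 were tested. In the Col cross 2 rose and 2 fell, or 3.85% each way, beside 10.4% higher and 6.38% lower among all genes. In the C24 cross 7 rose and 4 fell, or 13.5% and 7.69%, beside 16.8% higher and 15.0% lower among all genes. The C24 calls were 2 of 7 lower on the lysine list, 2 of 8 lower on the salicylate side routes, 1 of 5 higher on the modification list, 1 of 6 higher among relatives of CBP60g, 3 of 9 higher on the immune node list and 2 of 7 higher among WRKY and output genes. The Col calls were 1 higher each on the modification and immune node lists, and 1 lower each on the perception list and among WRKY and output genes. The perception list gave 0 of 10 in the C24 cross by edgeR, with 0 at an unadjusted p under 0.05 and 0 by DESeq2. The median log2 fold change over the lists was -0.16 in Col and 0.19 in C24, beside -0.01 and 0.00 over all genes.

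UGT74F1, a glucosyltransferase that makes salicylate glucoside, was called higher in both crosses. It had 11.7 and 10.6 CPM in Col hybrid seeds, against 2.64 and 0.758 CPM in Col control seeds (log2 fold change 2.69 ± 0.46, edgeR adjusted p = 0.00789). In C24 hybrid seeds it had 10.2 and 13.5 CPM, against 1.65 and 1.61 CPM in C24 control seeds (2.90 ± 0.47, adjusted p = 0.00277). Hybrid libraries were above control libraries throughout, and both calls held in 13 of 13 alternative settings. It was the 1 gene called of the 5 tested on the modification list in each cross.

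WRKY33, a transcription factor of the pathogen response, moved in opposite directions. It had 2.22 and 2.13 CPM in Col hybrid seeds, against 4.42 and 11.1 CPM in Col control seeds (log2 fold change -1.77 ± 0.45, edgeR adjusted p = 0.0303). In the C24 cross it had 1.91 and 2.60 CPM in hybrid seeds, against 0.689 and 0.584 CPM in control seeds (1.85 ± 0.50, adjusted p = 0.0234). The 4 hybrid libraries thus overlapped one another, while the Col and C24 controls lay apart above and below them. The difference of the effects was -3.62 ± 0.67 (edgeR adjusted p = 0.0435). This was the 1 call on it among the 52 listed genes tested, or 1.92%, beside 1.39% of all genes. In a fit over all 7 groups neither the difference (-3.63, edgeR adjusted p = 0.0922) nor the value in Col (-1.83, 0.0577) was called. Without Col control 2 the value in Col was -0.90 (adjusted p = 0.201) and the difference -2.76 (adjusted p = 0.0728). The Col call was also lost without Col hybrid 1 (adjusted p = 0.140) or 2 (0.0913), the C24 call without C24 control 2 (0.0870) or C24 hybrid 2 (0.0909), and that of the difference without Col hybrid 1 (0.0535).

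NPR3, a salicylate receptor, fell in the Col cross, to 28.0 and 27.4 CPM in Col hybrid seeds against 42.1 and 83.0 CPM in Col control seeds (-1.13 ± 0.26, edgeR adjusted p = 0.0219), and the call was lost without Col control 2 (-0.49, adjusted p = 0.123), Col hybrid 1 (-1.14, 0.125) or Col hybrid 2 (-1.08, 0.0971). PAL1 and PAL2, enzymes of the phenylalanine route, fell by 0.55 and 1.11 on the log2 scale in the C24 cross, and LKR/SDH and DHDPS1, enzymes of lysine breakdown and synthesis, fell by 0.70 and 0.51. DIR1, a lipid transfer protein of systemic resistance, rose to 12.3 and 19.8 CPM in C24 hybrid seeds, against 2.55 and 7.30 CPM in C24 control seeds (1.76 ± 0.45, edgeR adjusted p = 0.0185). CBP60C (0.59) and the immune node genes ADR1-L2 (0.63), CAMTA1 (0.54) and ADR1-L1 (0.49) also rose in C24, and ADR1-L1 rose in Col (0.66), with 7.13% of its sequence words found elsewhere in the genome. The calls of CBP60C, ADR1-L2, CAMTA1, ADR1-L1 and DHDPS1 in the C24 cross were lost without any 1 of its 4 libraries, with values without C24 control 1 of 0.46, 0.38, 0.38, 0.38 and -0.61. That of LKR/SDH was lost without C24 control 1 (-0.70), C24 control 2 (-0.74) or C24 hybrid 2 (-0.64), and PAL1 without C24 control 2 (-0.30), C24 hybrid 1 (-0.46) or C24 hybrid 2 (-0.69). PAL2 lost the call without C24 control 2 (-0.97) or C24 hybrid 1 (-0.79), and in the Col cross ADR1-L1 lost it without Col hybrid 1 (0.76), Col hybrid 2 (0.69) or Col control 1 (0.70). DIR1 kept its call without each single library, but not without replicate 1 of both A. thaliana controls (1.15, edgeR adjusted p = 0.0690). Over all 7 pathway lists the counts moved with single libraries. In the C24 cross, 3 genes were higher and 1 lower without C24 hybrid 1, C24 hybrid 2 or C24 control 2, and 5 were higher and 2 lower without C24 control 1. In the Col cross, 1 was higher and 1 lower without Col hybrid 1, 2 higher and 0 lower without Col hybrid 2, and 1 higher and 2 lower without Col control 1.

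PR1, the usual marker of salicylate signalling in leaves, did not pass the filter of the hybrid fits. It had 41 reads in Col control 1, 8 in C24 control 1, 6 in A. arenosa control 1 and at most 4 in each other library. The 2 libraries with the most PR1 reads were those in which the most loci held a read.

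In siliques the lists were read the same way. Of the 59 listed genes tested, 23 rose and 12 fell in Col siliques against Col hybrid seeds, or 39.0% and 20.3% beside 29.8% and 23.4% among all genes. In C24 siliques 22 rose and 9 fell, or 37.3% and 15.3% beside 31.9% and 26.9% among all genes. The medians were 0.41 and 0.39, beside 0.05 over all genes in both crosses. Some listed genes, PR5 and BSMT1 among them, passed the low-count filter only through the silique libraries, which favours a rise. Whether these shares differ from those of all genes was not tested. Over all 7 pathway lists, 5 genes were lower in Col siliques without Col hybrid 1, and 18 were higher. On the modification list 6 of 8 rose and 1 fell in Col and 5 rose and 1 fell in C24. On the immune node list, of 10 tested, 4 rose and 5 fell in Col and 3 rose and 4 fell in C24. On the perception list 4 of 11 rose and 1 fell in Col, and 3 rose in C24. On the lysine list 1 of 7 rose in each cross. On the salicylate side routes 2 of 8 rose and 3 fell in Col, and 3 rose and 3 fell in C24. Among the 6 relatives of CBP60g 2 rose and 2 fell in Col, and 1 rose and 1 fell in C24. Among the WRKY and output genes 4 of 9 rose in Col and 6 of 9 in C24.

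PR5, a pathogenesis-related thaumatin-like protein, had 18.3 and 14.9 CPM in Col siliques, against 0.130 and 0.250 CPM in Col hybrid seeds (log2 fold change 6.54 ± 0.54, edgeR adjusted p = 2.38e-05). In the C24 cross it had 97 and 148 reads in siliques, against 1 and 0 in hybrid seeds, a ratio of summed reads of 197 with a 95% counting interval of 35.1 to 7824. BSMT1, which methylates salicylate, had 127 and 125 reads in Col siliques against 0 in both Col hybrid seed libraries, so it was at least 28.5-fold higher. In C24 siliques BSMT1 had 8.20 and 11.4 CPM, against 0.582 and 0.0962 CPM in C24 hybrid seeds (4.75 ± 0.58, edgeR adjusted p = 0.000245). Silique libraries exceeded seed libraries for both genes in both crosses. Both genes passed the low-count filter only through the silique libraries, so nothing is read from these calls.

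UGT74F2, a close relative of UGT74F1, rose in siliques of both crosses (log2 fold changes 5.69 ± 0.46 and 2.89 ± 0.50, edgeR adjusted p = 2.15e-05 and 0.00105 for Col and C24). UGT74F1 itself fell there by 0.87 in Col and by 1.48 in C24 on the log2 scale. EDS1, the lipase-like hub of immune receptor signalling, rose by 3.34 ± 0.46 in Col and 3.24 ± 0.45 in C24, and its partner SAG101 fell by 1.24 in Col and by 1.29 in C24. PAL4 (4.04 and 4.20) and ICS2 (2.29 and 3.68), relatives of PAL1 and ICS1, rose in Col and C24 siliques, while PAL1 fell by 1.53 in Col and by 1.54 in C24. The silique effects of the 59 listed genes did not give a call for a difference between the crosses by edgeR, beside 0.290% of all genes. DESeq2 called 1 across all 7 pathway lists, beside 301 of all 20700 genes. At an unadjusted p under 0.05 there were 10 listed genes. The share of all genes at that level is not given here, so nothing is read from the 10.

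**Figure D3:**
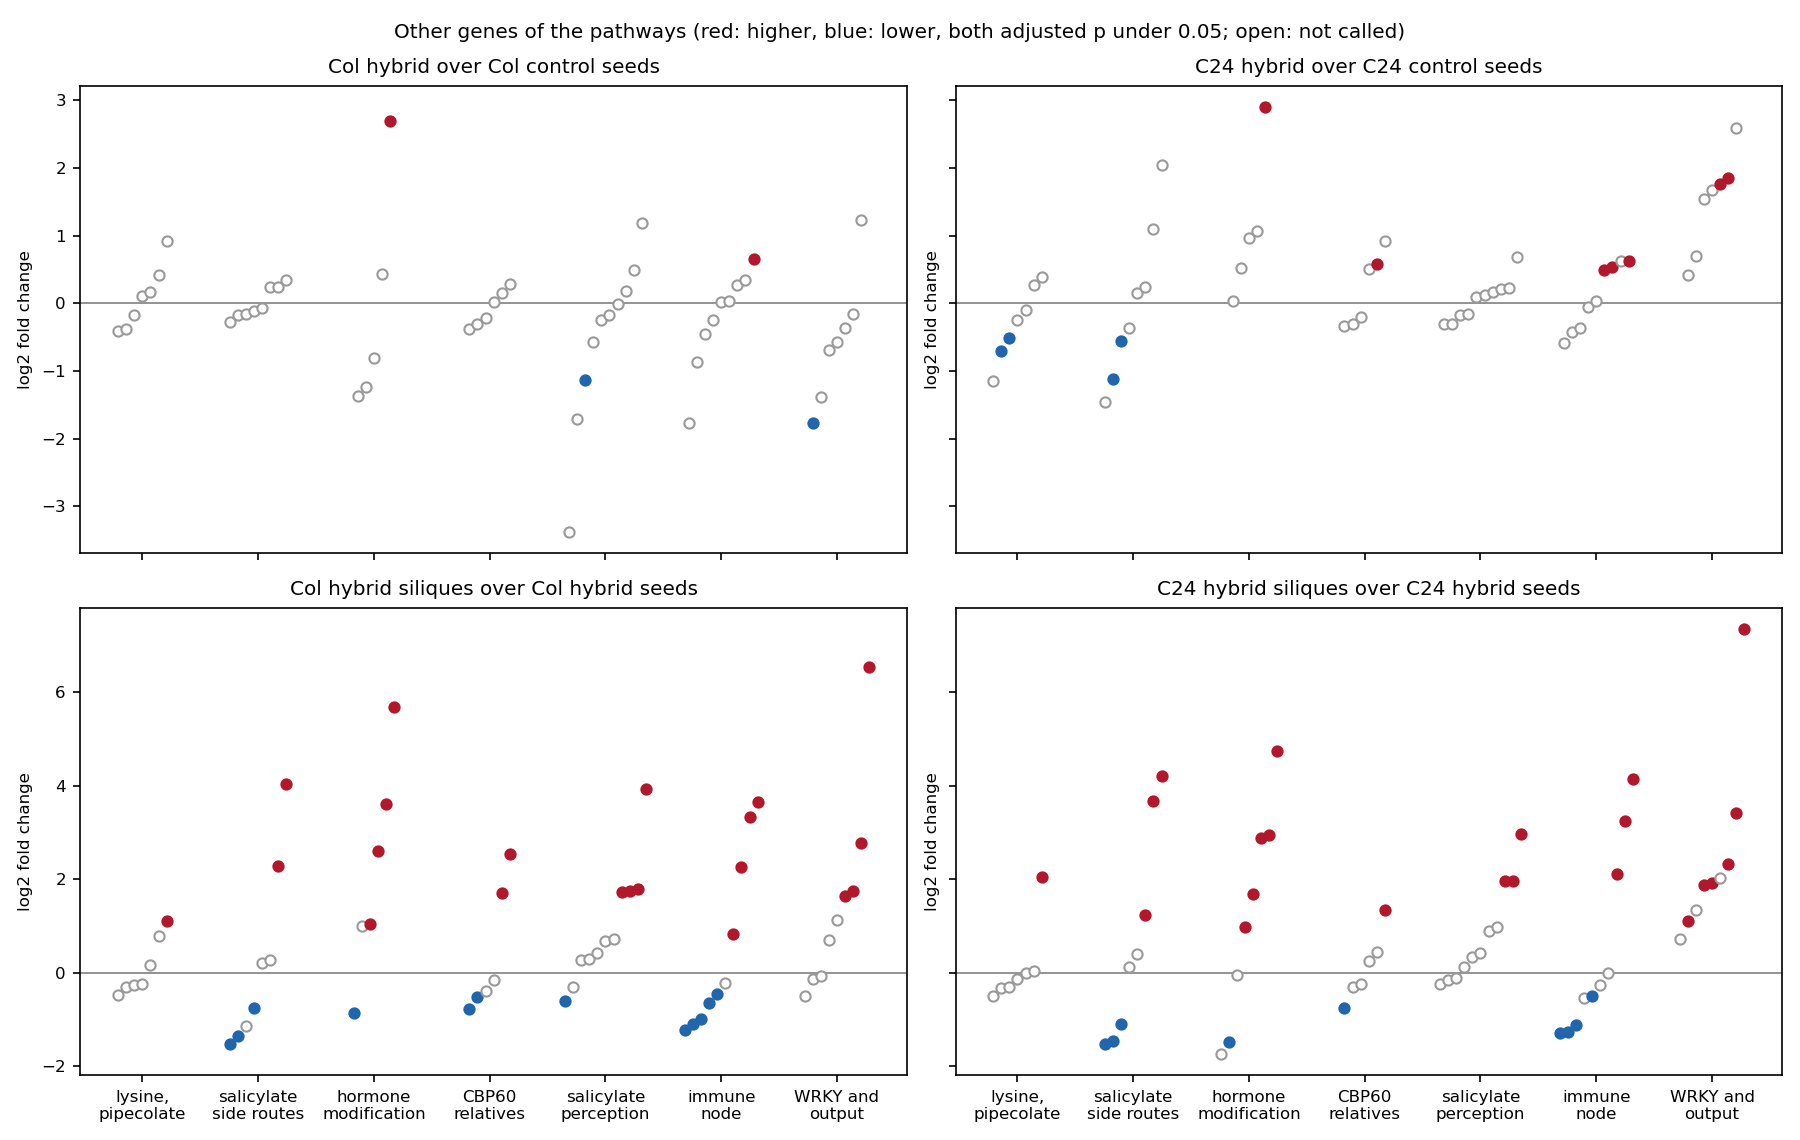
Log2 fold change (vertical axis) of each tested gene of the 7 pathway lists (horizontal axis), in hybrid over control seeds (top) and hybrid siliques over hybrid seeds (bottom), Col cross left and C24 cross right. In the top panels 2 and 7 genes are called higher and 2 and 4 lower. In the comparisons of the bottom panels 23 and 22 were called higher, but genes with 0 reads in either group are not drawn. This removes UGT76B1, BSMT1 and PR2 from some panels, so fewer than 23 such points appear at the bottom left.

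In the A. arenosa control 14 of 62 listed genes tested were higher and 9 lower than in Col control seeds, or 22.6% and 14.5% beside 20.1% and 28.9% among all genes. Against C24 control seeds 21 were higher and 11 lower, or 33.9% and 17.7% beside 22.4% and 31.1%. The fit without the A. arenosa control tested 52 of the listed genes. Those added here passed the low-count filter with the help of the A. arenosa libraries, where few reads suffice, which favours a higher level there. Whether these shares differ from those of all genes was not tested either. NIMIN1, a partner of the salicylate receptor NPR1, was higher by 6.41 over Col and 5.70 over C24 on the log2 scale, and ICS2 by 5.29 and 4.61. PAL1 was lower, with log2 fold changes of -3.73 against Col and -4.31 against C24. Over all 7 pathway lists, 8 genes were higher than in Col control seeds without A. arenosa control 2 and 6 lower without Col control 2, and against C24 control seeds 11 were higher and 7 lower without C24 control 2. These comparisons share the control libraries with those of the hybrids.

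Over the 14 libraries, the 5 genes whose log2 CPM was most like that of ALD1 were TLP5 (Pearson r = 0.956), AT1G12790 (0.945), AT5G42250 (0.937), AT5G24915 (0.935) and PAP27 (0.934). They share the libraries and the split between mothers that chose ALD1, so these values are a description. TLP5, of the Tubby-like protein family, had 554 and 611 CPM in Col hybrid seeds, against 43.3 and 53.9 CPM in C24 hybrid seeds. AT5G24915 had 105 and 46 reads in Col hybrid seeds, and 0 reads in all 8 libraries of the C24 and A. arenosa groups. SARD4 ranked 27 of 22634 genes (r = 0.887), ICS1 had r = -0.126, EDS5 0.194 and PBS3 -0.539. By Spearman correlation the leading genes were BRIZ1, CYP714A2, AT1G61093, AT4G19370 and AT1G12790, and without the A. arenosa control they were AT2G02660, TLP5, AT4G18300, AHL20 and AT1G12160, so AT1G12790 and TLP5 were each named under 2 of the 3 rules.

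**Figure D4:**
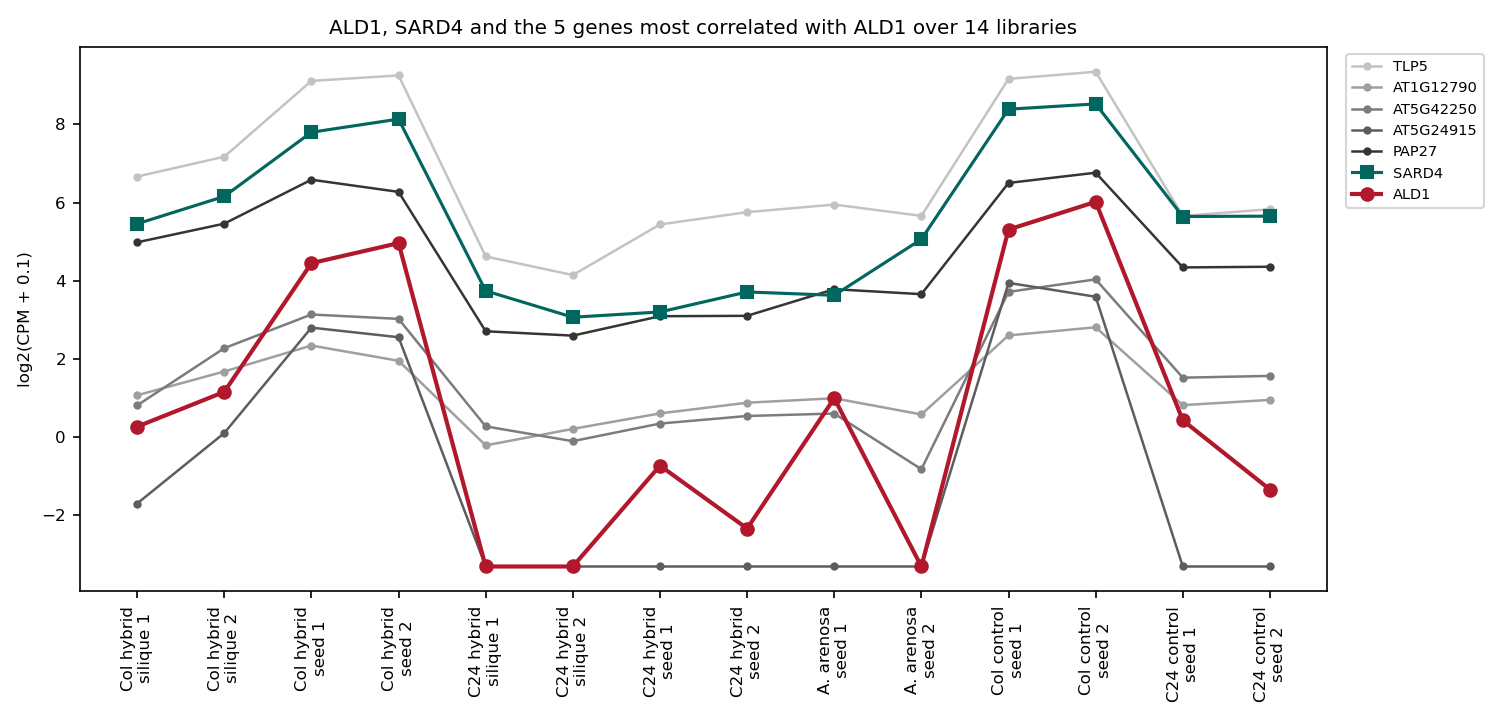
Level on a log2(CPM + 0.1) scale (vertical axis) of ALD1, SARD4 and the 5 genes with the highest Pearson correlation to ALD1 in each of the 14 libraries (horizontal axis). All 7 lines are higher in the Col seed libraries than in the C24 seed libraries, and ALD1 meets the floor, which stands for 0 reads, in both C24 siliques and in A. arenosa control 2.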

How the data were processed

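The deposited values are whole-number read counts per gene, which the authors did not normalise, for 14 libraries. BWA and the TAIR10 genome are named in the submitters' processing notes. How reads were counted, with which strand setting, and what was done with reads of several matches, are not given in the sources used here. Of the 18 sample records, 8 enter the A. thaliana controls as sums of 2 records in 1 column, per the file headers, and each sum was used as 1 library. Counts per transposable element, deposited for 8 seed libraries, gave only their share per library. All value columns were mapped, leaving 0.

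edgeR 4.0.16 in R 4.3.3 was run with filterByExpr, TMM, glmQLFit and glmQLFTest, and p-values were adjusted by Benjamini-Hochberg over all genes tested, with a threshold of 0.05. There were 3 fits: the 4 hybrid and A. thaliana control seed groups, these with the A. arenosa control, and the 4 hybrid groups. The script was tested on simulated data. Levels are CPM with TMM factors over all 14 libraries, and alternatives included DESeq2 1.42.0. Counting intervals are exact binomial intervals. Replicates differed by more than sampling noise, so none was merged.

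The genes and lists were chosen with earlier results of these data known. All 8 genes are named. Of each pathway list, at most the 4 called genes with the largest log2 fold change in a comparison could be named, and of all genes the 5 most correlated with ALD1 by each of 3 measures. PR1, UGT74F1, SAG101 and PAL1 in siliques, and the genes given by few reads, were named after their values were seen. Gene names and exon lengths came from the TAIR10.1 annotation, by locus. No coordinates or sequences are given, because that assembly is not the build of the files.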

Additional observations from a re-analysis of the deposited data

Results flagged for a closer look

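The hybrid effect of SARD4 differed between the crosses. The effect in Col minus that in C24 was 1.68 on the log2 scale (SE 0.26, edgeR adjusted p = 0.0207), from log2 fold changes of -0.45 in the Col cross and -2.14 in the C24 cross, with both hybrid libraries below both controls in each cross.

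For WRKY33 the same difference was -3.62 (SE 0.67, edgeR adjusted p = 0.0435), from -1.77 in the Col cross and 1.85 in the C24 cross.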

How the results depend on the processing

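Of the 8 genes, the counts called in A. arenosa against Col (4) and C24 (3) control seeds and in Col siliques (4) moved by at most 1.5 times under every alternative run. In the Col cross the 0 calls became 1 with upper quartile scaling, a filter of at least 5 CPM in 2 libraries, DESeq2, a fit of the compared groups, with a replicate block, and when replicate 1 of both A. thaliana controls was left out, 2 with no low-count filter, and 0 to 1 without single libraries. The 2 calls of the C24 cross became 3, with PBS3, in a fit of the compared groups, 1 without replicate 1 of both controls, and 1 to 2 without single libraries. For the difference of hybrid effects the 1 call became 0 in a fit of the 7 groups and without replicate 1 of both controls, and 0 to 1 without single libraries. In C24 siliques the 3 calls became 1 over all 7 groups and 1 to 3 without single libraries, and for the difference of silique effects the 0 calls became 1 with no filter or DESeq2. A fit without a library can leave a group with 1 sample, assumed to vary like the others. Over all 7 pathway lists, alternatives other than leaving out 1 library gave 1 to 4 genes higher and 1 to 4 lower in the Col cross (2 and 2 as reported), and 3 to 11 higher and 1 to 5 lower in the C24 cross (7 and 4). They gave 15 to 25 higher and 9 to 11 lower in Col siliques (23 and 12), and 16 to 24 higher and 8 to 10 lower in C24 siliques (22 and 9). Against Col control seeds A. arenosa had 10 to 20 higher and 4 to 11 lower (14 and 9), and against C24 control seeds 18 to 26 higher and 6 to 11 lower (21 and 11). The cause of these moves was not tested.

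Among the 8 genes, directions turned only where no call was made. Without replicate 1 of both controls PBS3 gave 0.67 in the Col cross, and ALD1 0.11 in the C24 cross and -1.40 for the difference. SARD4 in C24 siliques gave 0.02 with upper quartile scaling, 0.0033 with the 5 CPM filter and 0.0025 with the replicate block. EDS5 gave -0.01 for the difference of silique effects with no filter and over all 7 groups. Without single libraries, log2 fold changes in the Col cross ran from -0.19 to 0.54 for EDS5 and from -1.80 to 0.65 for PBS3. Those of ALD1 ran from -2.87 to 0.08 in the C24 cross, from -1.02 to 1.94 for the difference of hybrid effects, and from -6.22 to 1.67 in A. arenosa against C24. In A. arenosa against Col, EDS5 ran from -0.0017 to 0.15 and SARD1 from -0.89 to 0.17. EDS5 ran from -0.76 to 0.13 in Col siliques and SARD4 from -0.42 to 0.27 in C24 siliques. For the difference of silique effects the ranges were -0.52 to 1.85 for ALD1, -0.44 to 0.45 for EDS5, -0.18 to 1.34 for PBS3 and -1.88 to 2.91 for CBP60g.

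With the replicate block ICS1 was called in the Col cross (0.80, edgeR adjusted p = 0.0469), the only call among the 8 genes that it changed. Samples share only a number: deviations of same-numbered libraries correlated across genes at -0.056 in the Col cross, 0.332 in the C24 cross, -0.094 and -0.051 for A. arenosa against Col and C24, and 0.061 and 0.086 for siliques of Col and C24. Over all genes the Col cross had a median of -0.16 on the log2 scale with upper quartile scaling and -0.29 with no filter, against -0.01. Of the genes called there, 2143 were higher and 1311 lower, against 1338 and 1992 with upper quartile scaling. With 2 libraries per group and under 40 reads for FMO1 and SARD1, depth limits what could be called.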
